A study of Mus musculus with 6 samples.

Results

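Pericytes of the inguinal white adipose tissue (iWAT) were taken here as barcodes of 6 single-cell RNA libraries that carried the transcripts of Rgs5 and of Kcnj8, Higd1b or Cox4i2. A barcode was kept with at least 1000 UMIs (unique molecular identifiers, each standing for 1 captured transcript), under 10% of them from mitochondrial genes, and fewer than 30 Dcn UMIs per 10000. It also had to hold at most 1 UMI of Cdh5, Pecam1 and Ptprc together, at least 2 of Rgs5 and at least 2 of Kcnj8, Higd1b and Cox4i2 together. Of 68103 barcodes, 61195 met the limits on UMIs and mitochondrial share, and 830 of those met every limit. The pericytes were thus chosen by these UMI counts, so the levels of the 4 marker genes and every comparison of level with other barcodes are given as descriptions with no test, and tests were run on age and temperature alone.

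Pericytes are mural cells that lie on capillaries inside the basement membrane they share with the endothelium. They are held there by PDGF-B from endothelial cells acting on the receptor Pdgfrb, respond to vasoactive hormones and ATP, and grade into the contractile smooth muscle cells of larger vessels. In adipose tissue the vessel wall also lies beside the fibroblasts from which fat cells form, and mural cells have been studied as a possible source of adipocytes.

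The libraries came from male C57BL/6 mice that were young (9 weeks) or aged (57 weeks). The mice were kept at 30 °C for 3 weeks and then, single housed, either stayed at 30 °C (thermoneutrality, TN) or ended the following weeks with 3 days (3D) or 14 days (14D) at 6 °C. Stromal vascular cells of the iWAT were sorted as live cells without CD45, the pan-leukocyte antigen, and sequenced from the 3' end of transcripts. The study obtained mice from the National Institute on Aging (C57BL/6JN) or The Jackson Laboratory (C57BL/6J). Which supplier served which group is not given in the sources used here, so supplier and age cannot be told apart. The methods state no pooling of mice except where specified and give no number of mice for these libraries. Each combination of age and temperature is 1 library, none has a replicate, and p-values measure the spread between these 6 libraries after the main effects of age and temperature.

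The young libraries held 111 pericytes at TN, 140 at 3D and 160 at 14D. The aged libraries held 211, 145 and 63 in the same order. A pericyte of the young libraries had a median of 5980 UMIs at TN, 4291.5 at 3D and 4003 at 14D, and one of the aged libraries a median of 3171, 3459 and 3691. Summed over pericytes, the libraries gave 670500, 676125 and 737076 UMIs in the young and 766475, 542069 and 243886 in the aged. The aged 14D cold library stood apart, with the fewest pericytes and with 28.5% of the barcodes that met the limits on UMIs and mitochondrial share under 2000 UMIs, where the other 5 libraries had 3.09% to 6.33%.

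Many barcodes lay at or next to a marker limit. Pericytes with the minimum of 2 Rgs5 UMIs numbered 53, and 76 barcodes with 1 Rgs5 UMI met every other limit. At the other marker limit, 169 pericytes held exactly 2 UMIs of Kcnj8, Higd1b and Cox4i2, and 194 barcodes held 1 and met the rest. Endothelial and immune UMIs removed 236 barcodes that met all other limits, Dcn removed 155 and the mitochondrial share 105. No doublet caller was run, and doublets with fibroblasts, endothelial or immune cells were addressed by these limits alone. Between any pair of libraries 30 to 44 barcode sequences were shared, none of them belonging to a pericyte in both libraries. One pericyte of the aged 3D cold library held 8081 haemoglobin UMIs among its 9320 UMIs, and it was kept unless stated.

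Genes outside the rule were compared with neighbouring cells to check the label pericyte. For this, smooth muscle-type barcodes (1140), endothelial-type barcodes (4328) and fibroblast-type barcodes (40566) were set by the same kind of limits, on Myh11 with Acta2 and Tagln, on Cdh5 and Pecam1, and on Dcn. Levels of a class are plain counts per 1000000 UMIs of the class (CPM), averaged over the 6 libraries. Abcc9, the regulatory partner of the potassium channel subunit Kcnj8, was not in the rule, and averaged 391 CPM in pericytes, 10.8 in smooth muscle-type, 14.3 in endothelial-type and 21.7 in fibroblast-type barcodes. Pdgfrb averaged 474 CPM in pericytes against 208, 23.6 and 142 in those classes. Notch3, the Notch receptor of mural cells, averaged 764 CPM in pericytes and 807 in smooth muscle-type barcodes. The endothelial VEGF receptor Flt1, which the rule did not limit, averaged 21.6 CPM against 1208 in endothelial-type barcodes. The macrophage gene Adgre1 and the Schwann cell gene Sox10 had no UMI in any pericyte.

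With every barcode thinned to 1000 UMIs, so that depth was equal, Abcc9 had a UMI in 32.5% of pericytes, 0.614% of smooth muscle-type, 0.416% of endothelial-type and 2.08% of fibroblast-type barcodes. Without thinning the shares were 58.2%, 3.33%, 2.20% and 14.0%. Pdgfrb had a UMI in 36.6% of thinned pericytes, 19.7% of smooth muscle-type, 0.855% of endothelial-type and 12.9% of fibroblast-type barcodes, and in 80.4%, 66.9%, 3.1% and 55.9% without thinning. Myh11, the smooth muscle myosin heavy chain, was found in 34.8% of thinned pericytes (54.9% without thinning), between the 0.786% of endothelial-type barcodes, a type that lacks this myosin, and the 86.3% of smooth muscle-type barcodes.

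**Figure D1:**
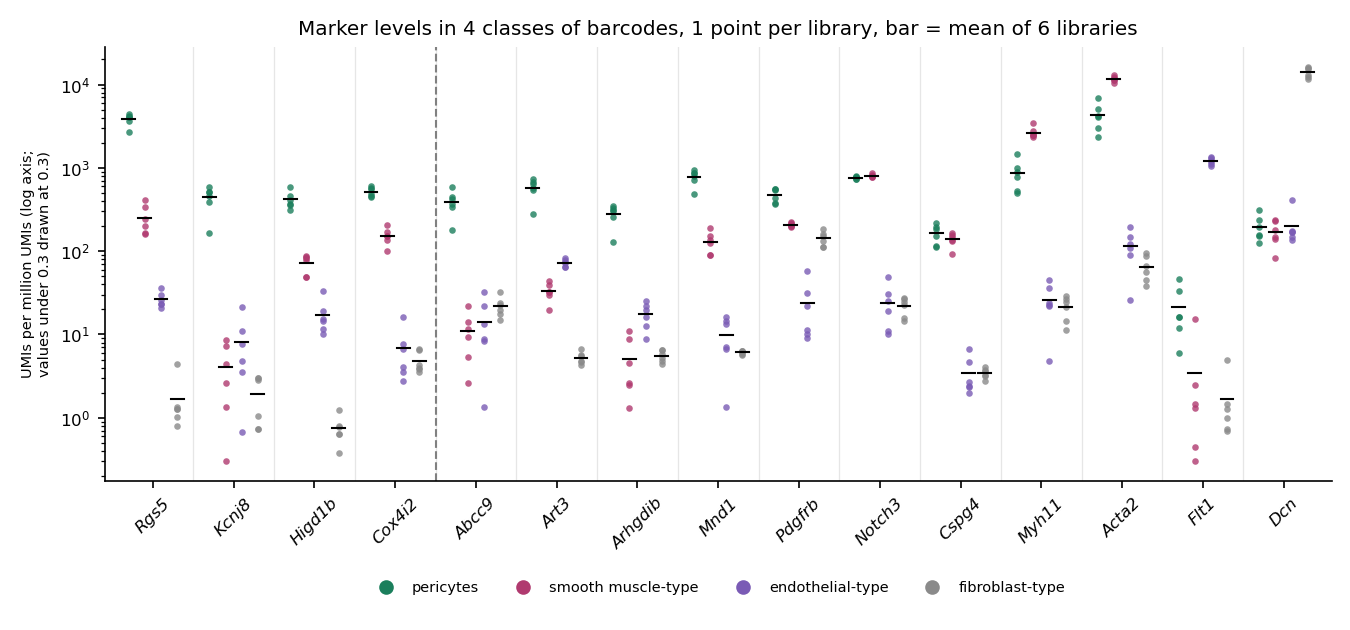
Levels of pericyte genes and of genes that define neighbouring cell types (plain CPM on a log axis) in pericytes and in smooth muscle-type, endothelial-type and fibroblast-type barcodes, 1 point per library. Abcc9 sat near 391 CPM in pericytes and at or below 21.7 CPM on average in the other classes, while Notch3 was as high in smooth muscle-type barcodes.

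The genes outside the rule with the highest ratio of pericytes over the highest other class, among the 1215 genes at 100 CPM or more in pericytes of every library, began with Arhgdib, a GDP-dissociation inhibitor known from blood cells. Its median log2 ratio over libraries was 4.11. Abcc9 followed at 3.90, the ADP-ribosyltransferase Art3 at 2.98 and the matrix protein Postn at 2.77. The ratio of Postn ran from -0.50 to 4.01 over libraries, since in young TN fibroblast-type barcodes stood at 576 CPM and pericytes at 406. Then came Mnd1, known from meiotic recombination (2.50), the cotransporter Slc12a2 (2.43), the angiotensin II receptor Agtr1a (2.37) and Vstm4 (2.26). The calcification inhibitor Mgp (2.12), vitronectin (Vtn, 1.99), the aminopeptidase Enpep that cleaves angiotensin II (1.75), Gm26802 (1.69), the cytokine Il34 (1.54) and the Golgi protein Cog7 (1.53) completed the genes given here. Agtr1a and Enpep act on the same peptide hormone.

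Pericytes differed among themselves along a contractile axis. Of the 830, 289 (34.8%) also met the limits of the smooth muscle-type barcodes on Myh11, Acta2 and Tagln. Their share was 57.7%, 33.6% and 38.8% in the young libraries at TN, 3D and 14D, and 34.1%, 20% and 23.8% in the aged. At each temperature the aged share was below the young one, and the aged TN share (34.1%) was above the young 3D share (33.6%), so the ages overlapped. The difference (26.0% ± 7.31 in aged and 43.3% ± 12.7 in young, SD, n = 3) gave p = 0.2 in an exact two-sided permutation test, which cannot go below 0.1 with 3 libraries against 3. The limits are UMI counts not scaled to depth, at least 2 of Myh11 and 10 of Acta2 and Tagln together. A deeper barcode meets them more easily, and median UMIs per pericyte were 5980, 4291.5 and 4003 in young and 3171, 3459 and 3691 in aged libraries. The share at equal depth was not measured.

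Genes outside those limits separated the 2 kinds of pericyte in the same direction in all 6 libraries. Pericytes meeting the smooth muscle limits averaged 1155 CPM of Mustn1, a small nuclear protein of muscle, the others 63.6 and smooth muscle-type barcodes 1750. The placental growth factor Pgf averaged 139.5 CPM against 4.51, with 106 in smooth muscle-type barcodes, and the calcium-binding S100a4 505 against 32.6, with 568. On the other side, pericytes below the limits averaged 667 CPM of Abcc9 against 68.3, with 10.8 in smooth muscle-type barcodes, and 1004 CPM of the metalloreductase Steap4 against 177, with 26.5. Arhgdib averaged 481 CPM below the limits against 58.9. For the 289 barcodes that met both sets of limits Mustn1, Pgf, S100a4 and Abcc9 thus lay nearer, as a ratio, to smooth muscle-type barcodes than to the other pericytes, against the label pericyte, while Steap4 and Arhgdib (5.08 in smooth muscle-type barcodes) lay nearer to the other pericytes. They are called pericytes here by the rule alone. Since the Myh11, Acta2 and Tagln UMIs that set the split come from the same cells, these are descriptions.

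The share of pericytes among barcodes that met the limits on UMIs and mitochondrial share did not show a difference between ages. It was 1.22% (95% exact binomial interval 1.01 to 1.47), 1.35% (1.13 to 1.59) and 1.43% (1.22 to 1.67) in the young libraries at TN, 3D and 14D. In the aged libraries it was 2.09% (1.82 to 2.39), 1.39% (1.17 to 1.63) and 0.630% (0.485 to 0.806), intervals that cover counting error only. The aged libraries thus held both the highest and the lowest share. The means were 1.37% ± 0.731 in aged and 1.33% ± 0.106 in young libraries (SD, n = 3, p = 0.9, exact two-sided permutation test), and without the aged TN library the difference was -0.325 percentage points. Per 100 endothelial-type barcodes there were 19.3, 26.9 and 22.5 pericytes in the young and 15.3, 19.9 and 15 in the aged libraries. The means were 16.8 ± 2.76 and 22.9 ± 3.80 (n = 3, p = 0.2, exact two-sided permutation test). The aged 3D value lay above the young TN value, while at each of the 3 temperatures the aged value was the lower. With the rule applied after thinning to 1000 UMIs the direction turned at TN, with 9.17 in the aged and 7.92 in the young library. At 3D and 14D the aged value was still the lower after thinning.

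Age was compared over the UMIs summed per library, with temperature in the model, by edgeR's quasi-likelihood test, and p-values were adjusted after Benjamini and Hochberg over 7139 genes. Among the genes that passed were the chemokines Cxcl10 and Ccl2 and the G protein regulator Rgs16, higher in aged pericytes, and the smooth muscle genes Acta2 and Myh11, lower in them. At an adjusted p under 0.05, 261 genes passed (3.66%), 144 of them higher in aged (2.02%) and 117 lower (1.64%). An unadjusted p under 0.05 was reached by 1033 genes (14.5%), and in 17.4% of genes the 3 aged and 3 young libraries did not overlap, the aged lying above in 8.66% and below in 8.75%. The median log2 difference of all genes tested was 0.01. Values per library below are CPM scaled with edgeR's TMM factors, listed as TN, 3D and 14D, and differences are log2(aged over young) with their standard error.

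The count rested on the 3D libraries. Without the young 3D cold library 21 genes passed and without the aged 3D cold library 52, while leaving out any other library gave 198 to 305. All 261 genes kept their direction in each of these 6 fits. Of the 85 named genes that passed, 12 passed in all 6 fits, namely Cxcl10, Ccl2, Ccl11, Rgs16, Gpihbp1, Cd300lg, Acta2, Myh11, Cdh6, P2rx1, Fgf1 and Bcas3. DESeq2 called 41 genes, all of them among the 261. With at least 5 UMIs of Rgs5 and 5 of Kcnj8, Higd1b and Cox4i2 together, 21 genes passed. With each pericyte thinned to 1000 UMIs and 63 pericytes drawn per library, 2 genes passed, and 123 of the 127 calls still tested kept their direction.

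Several chemokines that draw leukocytes were higher in aged pericytes. Of 19 listed chemokines, cytokines and adhesion molecules 13 were tested, and 5 passed as higher and 0 as lower (edgeR, and 5 and 0 at an unadjusted p under 0.05, DESeq2 2 and 0), with a median log2 difference of 0.50. Under the limits of 5 UMIs 8 of the 19 were tested and 0 passed, with a median of -0.08, Ccl2 at 0.72 (adjusted p = 0.801), Ccl11 at 0.19 (0.874) and Cxcl1 at -0.10 (0.957), while Cxcl10 and Icam1 were below the filter on low counts. Cxcl10, an interferon-inducible chemokine for T cells, lies at chr5:92346638-92348889 on the minus strand (GRCm38). It stood at 25.5, 16.6 and 9.48 CPM in young and at 104, 327 and 33.5 CPM in aged pericytes. Every aged library was above every young one, with the 3D library the highest of the aged. The log2 difference was 3.06 ± 0.30 (adjusted p = 8.23e-08). Its 283 UMIs came from 59 pericytes, and 1 pericyte of the aged 3D library held 93 of them. With the richest pericyte of every library left out, plain CPM were 12.1, 7.44 and 6.86 in young and 72.1, 132 and 20.9 in aged, and the ages still did not overlap.

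The promoter window of Cxcl10, which passed with the smallest p of its list, is shown because it held a letter match to an interferon-stimulated response element. It spans chr5:92348840-92349139 on the minus strand, from 250 bases before the start to 50 after (RefSeq, GRCm38.p6), with the match GAAANNGAAA in capitals, whose first base lies 213 bases before the start.
Cxcl10: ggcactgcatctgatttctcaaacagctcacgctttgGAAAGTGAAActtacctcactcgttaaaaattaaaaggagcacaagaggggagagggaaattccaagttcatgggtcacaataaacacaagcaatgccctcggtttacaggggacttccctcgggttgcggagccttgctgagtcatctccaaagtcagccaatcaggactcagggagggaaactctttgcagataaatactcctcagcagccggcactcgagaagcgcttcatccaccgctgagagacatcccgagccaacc
The 10 letters were searched on both strands (TTTCNNTTTC on the other) and were found in 3.44% of all 32851 windows of that length. Of 13 windows of the chemokine list, 1 held them.

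Ccl2, the monocyte chemokine, stood at 41.4, 27.1 and 135 CPM in young and 166, 166 and 293 in aged pericytes. No young library reached the lowest aged one, and in both ages the 14D library was highest. The log2 difference was 1.75 ± 0.21 (edgeR adjusted p = 3.05e-06). Single pericytes held 52 UMIs in the young and 53 in the aged 14D library, and without the richest pericyte of each library plain CPM were 28.7, 17.9 and 67.4 in young and 108, 119 and 71.1 in aged, with 14D then the lowest of the aged. Ccl11, the eosinophil chemokine, was 39.8, 155 and 86.7 CPM in young and 313, 156 and 360 in aged pericytes (1.56 ± 0.28, adjusted p = 0.000688), with nearly equal values at 3D. Without its richest pericytes the aged 3D value (74.6 plain CPM) lay below the young 3D value (109), so the ages overlapped. Cxcl1, a neutrophil chemokine, differed by 0.60 ± 0.12 (adjusted p = 0.00292), and Icam1, the integrin ligand on which leukocytes adhere, by 1.38 ± 0.27 (adjusted p = 0.00163). Both lost the call without the young or the aged 3D cold library (highest adjusted p 0.323 for Cxcl1, which was also lost without the aged 14D library, and 0.286 for Icam1). Cxcl9, a second interferon-inducible T cell chemokine outside the list, stood at 6.38, 1.51 and 2.71 CPM in young and 18.9, 45.9 and 33.5 in aged (3.12 ± 0.55, adjusted p = 0.000635). Cxcl9 met the filter on low counts through the aged libraries alone, so its direction was set by the filter and it is no further evidence of a rise. It rested on 52 UMIs, the aged TN value was 3.93 plain CPM, under the young TN value of 4.52, without the richest pericytes, and without a 3D library it lost the call (adjusted p up to 0.207).

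Some genes of MHC class I presentation were higher in aged pericytes. Of 20 listed genes of antigen presentation and the interferon response 17 were tested, 5 passed as higher and 0 as lower (10 and 0 at an unadjusted p under 0.05, DESeq2 0 and 0), and the median log2 difference was 0.54. B2m, the invariant light chain of class I, stood at 298, 279 and 345 CPM in young and 452, 509 and 477 in aged pericytes. The 3 aged values lay above the 3 young ones, a difference of 0.65 ± 0.14 (edgeR adjusted p = 0.00407). The class I heavy chain H2-K1 was 214, 271 and 255 CPM in young and 340, 481 and 402 in aged (0.72 ± 0.14, adjusted p = 0.00193), and H2-D1 differed by 0.54 ± 0.14 (adjusted p = 0.0202). The non-classical H2-T23 differed by 1.23 ± 0.28 (adjusted p = 0.00938), with overlapping ages, and the interferon regulatory factor Irf1 by 0.64 ± 0.16 (adjusted p = 0.0191). Without the young or without the aged 3D cold library none of the 5 passed, H2-D1 was also lost without either TN library and H2-T23 without either 14D library, and the highest adjusted p of the 6 fits were 0.324, 0.208, 0.348, 0.205 and 0.601 for B2m, H2-K1, H2-D1, H2-T23 and Irf1. The list summed to 2981, 3396 and 3674 CPM in young and 4303, 4640 and 4039 in aged pericytes, against 13060 to 15630 in endothelial-type barcodes, whose markers were also higher in aged pericytes as given below. Among pericytes with fewer than 10 Dcn UMIs per 10000 and no UMI of Cdh5, Pecam1 or Ptprc all 5 passed (B2m 0.69, adjusted p = 0.00490, and Irf1 0.63, adjusted p = 0.0381). Under the limits of 5 UMIs of Rgs5 and of the other markers none of the 5 passed. Their edgeR adjusted p then ran from 0.109 (H2-T23) to 0.517 (Irf1), with B2m at 0.125, and all 5 differences stayed above 0. H2-K1 and Irf1 passed without the pericytes meeting the smooth muscle limits, and B2m (0.48, adjusted p = 0.157), H2-D1 (0.28, adjusted p = 0.599) and H2-T23 (1.12, adjusted p = 0.0509) did not. In 9 of the 19 promoter windows of the list the letters GAAANNGAAA occurred, those of B2m and H2-T23 among the genes that passed.

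Several immediate early genes, transcribed within minutes of a stimulus or of tissue handling, were higher in aged pericytes. Of 18 immediate early and heat shock genes, all tested, 8 passed as higher and 0 as lower (12 and 0 at an unadjusted p under 0.05, DESeq2 3 and 0), with a median log2 difference of 0.36. Egr1 was 2081, 2142 and 1542 CPM in young and 3001, 3031 and 2566 in aged pericytes, a difference of 0.59 ± 0.11 (edgeR adjusted p = 0.000888) with no overlap of the ages. The AP-1 subunits Fos (0.52 ± 0.10, adjusted p = 0.00131), Fosb (0.57 ± 0.11, adjusted p = 0.00123), Junb (0.52 ± 0.10, adjusted p = 0.00193) and Jun (0.36 ± 0.10, adjusted p = 0.0310) also rose. So did the antiproliferative Btg2 (0.41 ± 0.11, adjusted p = 0.0335), the heat shock protein Hspa1a (0.46 ± 0.12, adjusted p = 0.0278) and the cytokine signalling inhibitor Socs3 (0.62 ± 0.13, adjusted p = 0.00315). None of the 8 passed without the young 3D cold library and Egr1 alone passed without the aged one, with adjusted p up to 0.486 over the 6 fits. Under the limits of 5 UMIs none of the 8 passed (adjusted p 0.24 to 0.69). Without the pericytes meeting the smooth muscle limits Fos (0.42, adjusted p = 0.124), Jun (0.16, adjusted p = 0.778) and Btg2 (0.42, adjusted p = 0.150) did not pass. Egr1, Fosb, Junb, Hspa1a and Socs3 did. Among 11 glucocorticoid-responsive genes, the metal-binding Mt1 (0.60 ± 0.14, adjusted p = 0.00984) and the kinase Sgk1 (0.66 ± 0.18, adjusted p = 0.0264) were higher and none lower (4 and 0 at an unadjusted p under 0.05, DESeq2 0 and 0), the list's median being 0.21. Mt1 lost its call without any 3D or 14D library and Sgk1 without any 1 of the 6, with adjusted p up to 0.510 and 0.212.

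**Figure D2:**
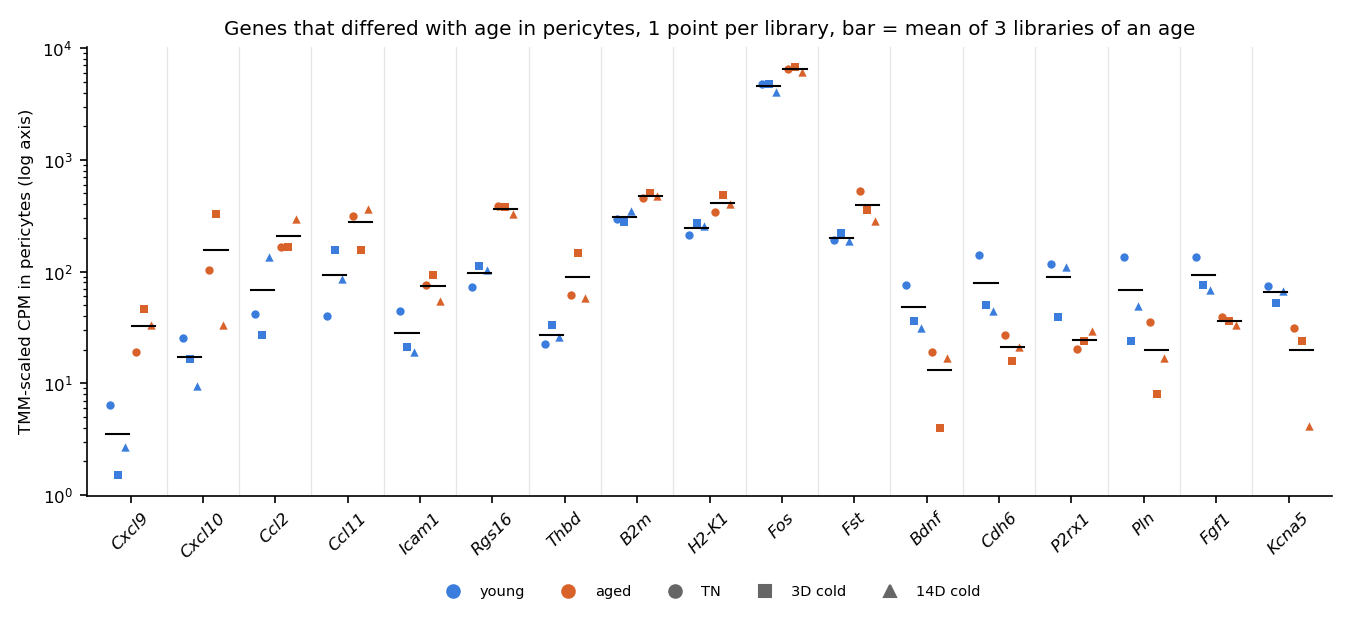
Levels in pericytes (TMM-scaled CPM on a log axis) of genes that were higher or lower with age, 1 point per library, young and aged side by side and temperatures distinguished. For Rgs16 the aged libraries sat at 327 to 384 CPM and the young at 73.3 to 113, and for Cxcl10 the aged libraries spread from 33.5 to 327 CPM.

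Among the 10 largest rises at 30 CPM or more, Rgs16 had the smallest p. It encodes a GTPase-activating protein that ends signals of G protein-coupled receptors, and lies at chr1:153740349-153745468 (plus strand, GRCm38). It stood at 73.3, 113 and 104 CPM in young and at 384, 379 and 327 in aged pericytes. The aged libraries formed a tight group well above the young ones, at 1.92 ± 0.17 on the log2 scale (edgeR adjusted p = 1.11e-08). Thbd, thrombomodulin, an anticoagulant receptor, was 22.3, 33.2 and 25.7 CPM in young and 62.0, 148 and 58.6 in aged (1.71 ± 0.25, adjusted p = 6.41e-05). The interleukin-17 receptor Il17ra differed by 1.70 ± 0.34 (adjusted p = 0.00212) and the circadian transcription factor Hlf by 1.69 ± 0.37 (adjusted p = 0.00520). Srgn, the proteoglycan serglycin of secretory granules, differed by 2.26 ± 0.45 (adjusted p = 0.00212) and Rflnb, a filamin-binding protein, by 1.66 ± 0.40 (adjusted p = 0.0122). Srgn met the filter on low counts through the aged libraries alone, so its direction was set by the filter. Thbd, Il17ra, Hlf and Srgn lost the call without a 3D library (adjusted p up to 0.121, 0.163, 0.155 and 0.123), and Rflnb without young TN, young 3D or aged TN (up to 0.339).

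Some endothelial transcripts were higher in aged pericytes as well. Gpihbp1, which carries lipoprotein lipase across capillary endothelium, was 1.59, 15.1 and 2.71 CPM in young and 20.2, 45.9 and 67.0 in aged (2.71 ± 0.46, edgeR adjusted p = 0.000468). Of 12 listed endothelial markers 4 were tested, and Gpihbp1, Flt1 (1.60 ± 0.41, adjusted p = 0.0196) and Cd300lg (1.47 ± 0.20, adjusted p = 3.02e-05) passed as higher. Gpihbp1 and Flt1 were low in the young libraries and needed the aged ones to meet the filter on low counts. Their direction thus followed in part from the filter. Flt1 lost its call without any TN or 3D library (adjusted p up to 0.359). The 12 markers together summed to 69, 195 and 134 CPM in young and 308, 404 and 340 in aged pericytes, with Cd300lg giving 48.5% of it, against 12850 to 13940 in endothelial-type barcodes. Among pericytes with fewer than 10 Dcn UMIs per 10000 and no UMI of Cdh5, Pecam1 or Ptprc, Cd300lg still differed by 1.33 (adjusted p = 0.000435), while Gpihbp1, Flt1, Srgn and Rflnb fell below the filter on low counts. The part of endothelial RNA in the rises of Gpihbp1, Flt1, Srgn and Rflnb was not tested.

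Most contractile genes tested were lower in aged pericytes. Of 20 listed genes of the contractile apparatus 18 were tested, 11 fell and 0 rose (14 and 0 at an unadjusted p under 0.05, DESeq2 7 and 0), with a median log2 difference of -0.62. Acta2, smooth muscle actin, stood at 7352, 4187 and 5099 CPM in young and 4288, 2533 and 3065 in aged pericytes. At each temperature the aged value was the lower, and the aged TN value overlapped the young 3D value. The difference was -0.75 ± 0.10 (edgeR adjusted p = 2.51e-05). Myh11 was 1584, 906 and 990 CPM in young and 812, 536 and 540 in aged (-0.87 ± 0.12, adjusted p = 3.57e-05). The actin-binding Tagln (-0.77 ± 0.11), the tropomyosins Tpm2 (-0.80 ± 0.11) and Tpm1 (-0.54 ± 0.12), the myosin kinase Mylk (-0.66 ± 0.12) and Mustn1 (-0.91 ± 0.13) fell with adjusted p from 3.57e-05 to 0.00469. The actin nucleator Lmod1 (-0.58 ± 0.15, adjusted p = 0.0238), gamma-synuclein (Sncg, -0.52 ± 0.13, adjusted p = 0.0182) and phospholamban (Pln, -1.81 ± 0.28, adjusted p = 0.000129) also fell.

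Myl9, the regulatory light chain of smooth muscle myosin, fell from 3463, 3100 and 3081 CPM in young to 2304, 1970 and 1825 in aged pericytes (-0.66 ± 0.10, edgeR adjusted p = 0.000168). All 3 aged libraries lay below the young ones. Its promoter window is shown as the 1 of 17 windows of the contractile list that held a CArG box, the element of serum response factor, found in 1.63% of all windows on either strand. It spans chr2:156775214-156775513 on the plus strand (RefSeq, GRCm38.p6), with the box in capitals beginning 161 bases before the start.
Myl9: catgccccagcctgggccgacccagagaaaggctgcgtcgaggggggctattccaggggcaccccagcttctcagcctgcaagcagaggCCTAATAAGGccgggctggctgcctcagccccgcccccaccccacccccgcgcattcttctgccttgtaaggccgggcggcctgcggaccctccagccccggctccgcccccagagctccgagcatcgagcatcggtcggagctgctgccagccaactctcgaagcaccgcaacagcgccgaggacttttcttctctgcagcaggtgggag
Myl9 was also the 1 gene of the 18 that still passed among the pericytes meeting the smooth muscle limits alone.

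The contractile genes were also compared within each kind of pericyte. Without the pericytes that met the smooth muscle limits 0 of 16 genes tested passed in either direction and the list's median was -0.07, with Acta2 at 0.36 and Myh11 at 0.50. In those pericytes alone 1 of 18 passed, all 18 differences lay below 0 and the median was -0.35. Acta2, Myh11 and Tagln set the limits, so this split was made on 3 of the genes it compares, and the part of the share of these pericytes in the fall was not tested. After thinning to 1000 UMIs, Myh11 had a UMI in 52.3%, 27.1% and 37.5% of young and 36.5%, 26.9% and 27% of aged pericytes at TN, 3D and 14D, and Acta2 in 72.1%, 45% and 51.9% of young and 56.4%, 33.8% and 39.7% of aged. Without the young 3D cold library 3 of the 18 genes passed and without the aged 3D cold library 7, with a highest adjusted p of 0.286 for Tpm1 and of 0.324 for Sncg, which was also lost without either TN library.

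**Figure D3:**
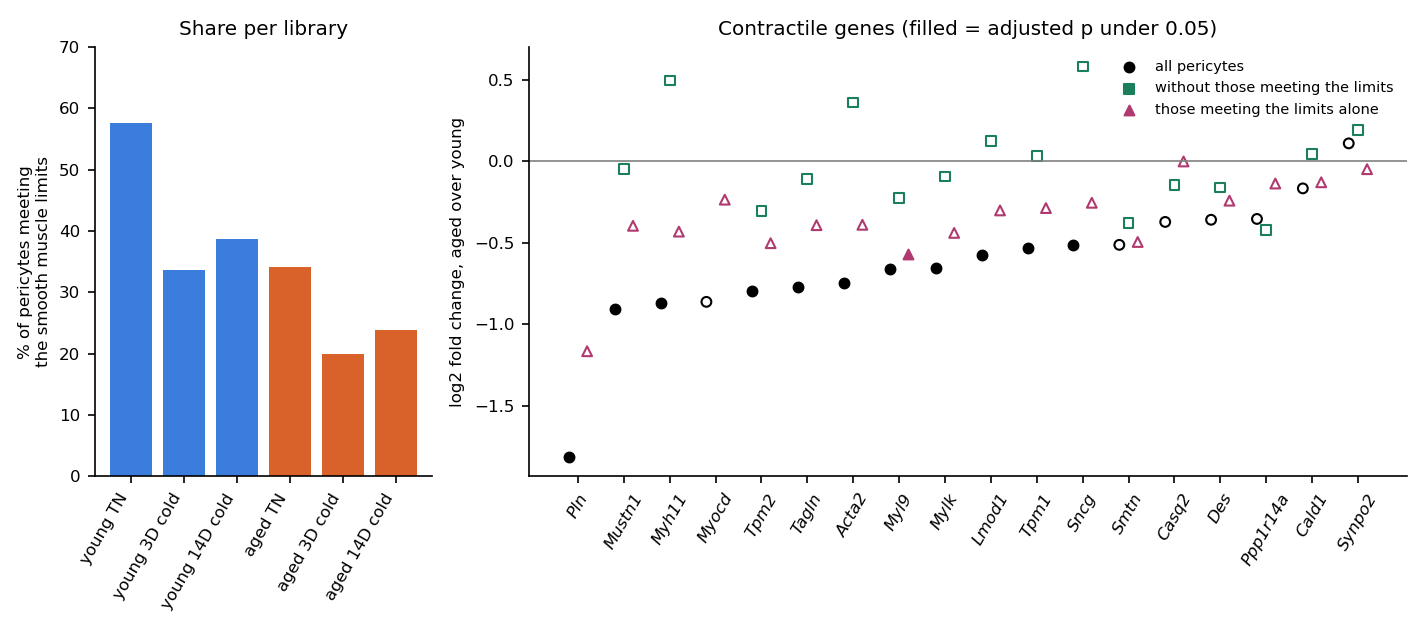
Left, percent of pericytes meeting the smooth muscle limits in each library (bars). Right, log2(aged over young) of the tested contractile genes over all pericytes, without the pericytes meeting the limits and in those alone (filled where the adjusted p was under 0.05), with most points below 0 over all pericytes (median -0.62) and around 0 without those meeting the limits (median -0.07).

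Receptors and channels of vascular tone fell in a few members. Of 25 vasoactive receptors 13 were tested and P2rx1, the ATP-gated cation channel, passed as lower, with 0 higher (5 and 0 at an unadjusted p under 0.05, DESeq2 1 and 0). It was 118, 39.2 and 111 CPM in young and 20.2, 23.9 and 29.3 in aged pericytes, every aged library below every young one (-1.89 ± 0.28, edgeR adjusted p = 0.000113). Among 16 tested ion channels and calcium pumps of 20, the potassium channel Kcna5 (-1.51 ± 0.30, adjusted p = 0.00193) and the calcium pump Atp2a3 (-1.21 ± 0.28, adjusted p = 0.00931) fell and Abcc9 rose (7 lower and 2 higher at an unadjusted p under 0.05, DESeq2 0 and 0). Kcna5 lost its call without young 3D (adjusted p 0.106) and Atp2a3 without any TN or 3D library (up to 0.259). P2rx1, Kcna5 and Atp2a3 were below the filter on low counts once the pericytes meeting the smooth muscle limits were left out. The medians were -0.36 for the receptors and -0.43 for the channels, and Agtr1a differed by 0.18 ± 0.17 (adjusted p = 0.718).

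The 10 largest falls with age began with Bdnf and Cdh6. Bdnf, a neurotrophin, was 76.5, 36.2 and 31.1 CPM in young and 18.9, 3.99 and 16.7 in aged pericytes. Its 115 UMIs gave a difference of -2.00 ± 0.36 (edgeR adjusted p = 0.000785). Cdh6, a cadherin, was 142, 49.7 and 44.7 CPM in young and 27, 16 and 20.9 in aged, highest at young TN (-2.00 ± 0.28, adjusted p = 3.57e-05). Bcas3 was 247, 119 and 154 CPM in young and 68.8, 51.9 and 50.2 in aged (-1.60 ± 0.19, adjusted p = 4.58e-06), again with no overlap. The Ras-like GTPase Rergl (-1.79 ± 0.28), the orphan receptor Gpr20 (-1.79 ± 0.39), the inositol phosphate kinase Itpk1 (-1.74 ± 0.29), the muscle F-box protein Fbxl22 (-1.55 ± 0.30) and the C-type lectin Cd93 (-1.52 ± 0.35) fell with adjusted p between 0.000156 and 0.00816, and P2rx1 and Pln completed the 10. All 10 were below the filter on low counts without the pericytes meeting the smooth muscle limits. Calls of Bdnf, Rergl, Gpr20, Itpk1, Fbxl22, Cd93 and Pln were lost without at least 1 TN or 3D library, with adjusted p up to 0.106, 0.0598, 0.120, 0.0716, 0.371, 0.179 and 0.0780.

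Pericyte genes outside the rule moved in both directions. Of 20, 18 were tested, Abcc9 (0.61 ± 0.16, edgeR adjusted p = 0.0196), Steap4 (0.61 ± 0.15, adjusted p = 0.0182) and Vtn (0.60 ± 0.14, adjusted p = 0.0120) rose, and the proteoglycan Cspg4, known as NG2 (-0.61 ± 0.16, adjusted p = 0.0300), and the mucin-like Parm1 (-0.64 ± 0.18, adjusted p = 0.0351) fell. DESeq2 called 0 of the 18 in either direction, and the list's median was 0.07, near that of all genes. Without the pericytes meeting the smooth muscle limits Abcc9 (0.07, adjusted p = 0.930), Steap4 (0.10, adjusted p = 0.905), Vtn (0.12, adjusted p = 0.881), Cspg4 (-0.41, adjusted p = 0.458) and Parm1 (-0.31, adjusted p = 0.809) did not pass. In those pericytes alone Abcc9 differed by 1.37 (adjusted p = 0.166) and Steap4 by 1.09 (adjusted p = 0.109), neither passing. The calls of Abcc9, Steap4 and Vtn were lost without any TN or 3D library and those of Cspg4 and Parm1 without any 3D or 14D library (highest adjusted p 0.308, 0.318, 0.172, 0.353 and 0.379). Of 13 tested genes of PDGF and Notch signalling, the nuclear receptor partner Nrip2 fell (-1.03 ± 0.16, adjusted p = 0.000156) and 0 rose (3 and 0 at an unadjusted p under 0.05, DESeq2 1 and 0), and its call too was lost without a 3D library (up to 0.0864) and without the pericytes meeting the smooth muscle limits (-0.11, adjusted p = 0.972).

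Angiogenic and vessel-stabilising genes also moved in both directions. Of 15 tested angiogenic and vessel-stabilising genes of 20, the chemokine Cxcl12 (0.69 ± 0.14, edgeR adjusted p = 0.00315), the VEGF co-receptor Nrp1 (0.63 ± 0.16, adjusted p = 0.0228) and Tgfb1 (0.71 ± 0.18, adjusted p = 0.0215) were higher. The growth factors Fgf1 (-1.42 ± 0.23, adjusted p = 0.000298) and Pgf (-0.84 ± 0.22, adjusted p = 0.0264) were lower. Fgf1 stood at 135, 75.4 and 69.1 CPM in young and 39.1, 35.9 and 33.5 in aged pericytes, the aged libraries close together and below all young ones. DESeq2 called 0 of the 15. Without the pericytes meeting the smooth muscle limits Cxcl12 (0.28, adjusted p = 0.540), Nrp1 (0.20, adjusted p = 0.778) and Tgfb1 (0.42, adjusted p = 0.468) did not pass, and Fgf1 and Pgf were below the filter on low counts. Cxcl12 lost its call without young TN or either 3D library (highest adjusted p 0.0951), Nrp1 and Tgfb1 without any TN or 3D library (0.319 and 0.3), and Pgf without any library but young 14D (0.334).

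Among matrix genes 6 were lower in aged pericytes. Of 20 tested genes of the basement membrane and its integrins, the laminin Lamb2 (-0.69 ± 0.16, edgeR adjusted p = 0.0111), the collagen Col18a1 (-0.81 ± 0.17, adjusted p = 0.00353) and the collagen-binding Sparc (-0.39 ± 0.11, adjusted p = 0.0343) fell and 0 rose (8 and 1 at an unadjusted p under 0.05, DESeq2 0 and 0), with a median of -0.30. Of 21 tested interstitial matrix genes, the fibrillar collagens Col1a1 (-0.69 ± 0.17), Col1a2 (-0.57 ± 0.14) and Col3a1 (-0.62 ± 0.14) fell, with adjusted p of 0.0182, 0.0189 and 0.00693. Of the 21, 7 were lower and 4 higher at an unadjusted p under 0.05 (edgeR), and the list's median was -0.09. DESeq2 called none of the 3 collagens (adjusted p = 0.249, 0.239 and 0.106). Col3a1 was 677, 790 and 1277 CPM in young and 611, 479 and 624 in aged pericytes, the young 14D library far above the rest. One young 14D pericyte held 184 UMIs of Col3a1, 88 of Col1a2 and 51 of Col1a1. With fewer than 10 Dcn UMIs per 10000 and no UMI of Cdh5, Pecam1 or Ptprc, none of the 3 collagens passed (Col1a1 -0.43, Col1a2 -0.46 and Col3a1 -0.47, adjusted p = 0.285, 0.0868 and 0.113), and without the pericytes meeting the smooth muscle limits all 3 did (Col1a1 -1.13 and Col1a2 -0.82). The metalloproteinase inhibitor Timp3 (0.64 ± 0.11, adjusted p = 0.000585) rose. Lamb2 was 0.09 (adjusted p = 0.943) and Sparc -0.81 (adjusted p = 2.06e-05) without the pericytes meeting the smooth muscle limits. None of these 7 calls held without the young or without the aged 3D cold library, and Lamb2, Sparc and the 3 fibrillar collagens were also lost without either 14D library, Col1a1 running from -1.01 to -0.45. The highest adjusted p of the 7 genes over the 6 fits ran from 0.147 to 0.603. The 12 fibroblast markers summed to 2131, 2443 and 2886 CPM in young and 2330, 2741 and 3092 in aged pericytes, Gsn giving 84.3% of it, against 48810 to 63430 in fibroblast-type barcodes. Of the 12, 6 were tested, with a median log2 difference of -0.44 and 0 past the threshold for age (edgeR, and at an unadjusted p under 0.05 Clec3b and Pi16 lower and 0 higher, DESeq2 0). The part of fibroblast RNA in the collagen values was not tested further.

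Several genes of fat uptake and adipogenesis were higher in aged pericytes. Of 17 listed, 12 were tested, 6 rose and 0 fell (6 and 0 at an unadjusted p under 0.05, DESeq2 2 and 0), with a median of 0.41. Fabp4, the fatty acid-binding protein of adipocytes and capillaries, differed by 0.57 ± 0.09 (edgeR adjusted p = 0.000118), and the fatty acid transporter Cd36 by 0.59 ± 0.12 (adjusted p = 0.00353). Dlk1, the inhibitor of adipogenesis also called Pref-1, differed by 1.22 ± 0.19 (adjusted p = 0.000134). The early adipogenic factors Cebpd (0.53 ± 0.13, adjusted p = 0.0175) and Ebf2 (0.61 ± 0.16, adjusted p = 0.0228) and the lipid droplet protein Plin2 (0.54 ± 0.14, adjusted p = 0.0216) rose too. Without the pericytes meeting the smooth muscle limits Cebpd passed (0.55, adjusted p = 0.0346), and Fabp4 (0.31, adjusted p = 0.387), Cd36 (0.12, adjusted p = 0.856), Dlk1 (0.63, adjusted p = 0.142), Ebf2 (0.43, adjusted p = 0.381) and Plin2 (0.25, adjusted p = 0.654) did not. The endothelial marker sum given above, which was also higher in aged pericytes, was not tested for its part in Fabp4 and Cd36, which capillary endothelium carries. All 6 lost their calls without the young 3D cold library (highest adjusted p of the 6 fits 0.0671 for Fabp4, 0.0553 for Dlk1 and 0.229 to 0.588 for the others). Cd36, Cebpd, Ebf2 and Plin2 were also lost without aged 3D, Cebpd without either 14D library, Ebf2 without either TN library and Plin2 without young TN. The 10 adipocyte markers summed to 128, 342 and 160 CPM in young and 125, 242 and 217 in aged pericytes.

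Of 9 genes that the study discussed by name for fibroblasts or immune cells, chosen on these libraries and so no independent evidence of direction, 7 were tested in pericytes. Cd36, the lectin Lgals3 (1.58 ± 0.38, edgeR adjusted p = 0.0120) and the phospholipid transfer protein Pltp (1.15 ± 0.21, adjusted p = 0.000766) were higher, and the tetraspanin Cd9 was lower (-0.65 ± 0.17, adjusted p = 0.0212), with 5 higher and 1 lower at an unadjusted p under 0.05 and 0 and 0 in DESeq2. Lgals3, Pltp and Cd9 lost the call without either 3D library, Lgals3 also without aged 14D and Cd9 without either TN library (highest adjusted p 0.323, 0.130 and 0.488). Without the pericytes meeting the smooth muscle limits Cd36 (0.12, adjusted p = 0.856), Pltp (0.54, adjusted p = 0.314) and Cd9 (-0.44, adjusted p = 0.643) did not pass. Lgals3 was then below the filter on low counts. Over all pericytes Lgals3 met that filter only with the aged libraries, so its direction followed in part from the filter. Of 11 tested genes of senescence and the cell cycle, the cyclin Ccnd1 fell (-1.17 ± 0.27, adjusted p = 0.00816, up to 0.231 without a 3D library) and 0 rose (1 and 1 at an unadjusted p under 0.05, DESeq2 0 and 0). The cell cycle inhibitor Cdkn1a was the member that was higher at an unadjusted p under 0.05. Of 8 tested genes of glycolysis and the hypoxia response 0 passed in either direction, also at an unadjusted p under 0.05 and with DESeq2.

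Cold was compared with TN over both ages, with age in the model. The fatty acid handlers Fabp4 and Cd36 and the matrix protein Postn were higher in the cold, and Dlk1 and 6 contractile genes lower. At an adjusted p under 0.05, 106 genes passed (1.48%) in edgeR's test of any temperature difference, 42 higher at both cold times (0.588%), 57 lower at both (0.798%) and 7 mixed (0.0981%). An unadjusted p under 0.05 was reached by 728 genes (10.2%). Without the young 3D cold library 5 genes passed and without the aged 3D cold library 30, while without the aged TN library 379 and without the aged 14D library 172 did, and DESeq2 called 10. Fabp4, Igfbp3 and Dlk1 were the 3 named genes that passed in all 6 fits with a library left out.

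Fabp4, at chr3:10204088-10208576 (minus strand, GRCm38), stood at 9677, 23542 and 17470 CPM in young and 14988, 34301 and 25392 in aged pericytes at TN, 3D and 14D. In both ages TN was lowest and 3D highest, a log2 difference from TN of 1.24 at 3D and 0.81 at 14D (edgeR adjusted p = 6.44e-08). Cd36 was 360, 959 and 777 CPM in young and 643, 1418 and 1009 in aged, with the same order (1.26 and 0.88, adjusted p = 3.04e-05). The endothelial marker sum given above was likewise lowest at TN and highest at 3D in both ages, and its part in the Fabp4 and Cd36 values was not tested. Igfbp3, which binds insulin-like growth factors, was 22.3, 46.7 and 297 CPM in young and 27, 69.8 and 79.5 in aged (1.16 and 2.99, adjusted p = 9.98e-06), the young 14D library standing far above all others. Postn was 434, 1388 and 1312 CPM in young and 843, 1659 and 1361 in aged (1.29 and 1.13, adjusted p = 3.39e-05), and Dlk1 was 121, 49.7 and 27.1 and 251, 122 and 83.7 (-1.14 and -1.86, adjusted p = 3.39e-05). Without young 3D the adjusted p was 0.0831 for both Cd36 and Postn.

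**Figure D4:**
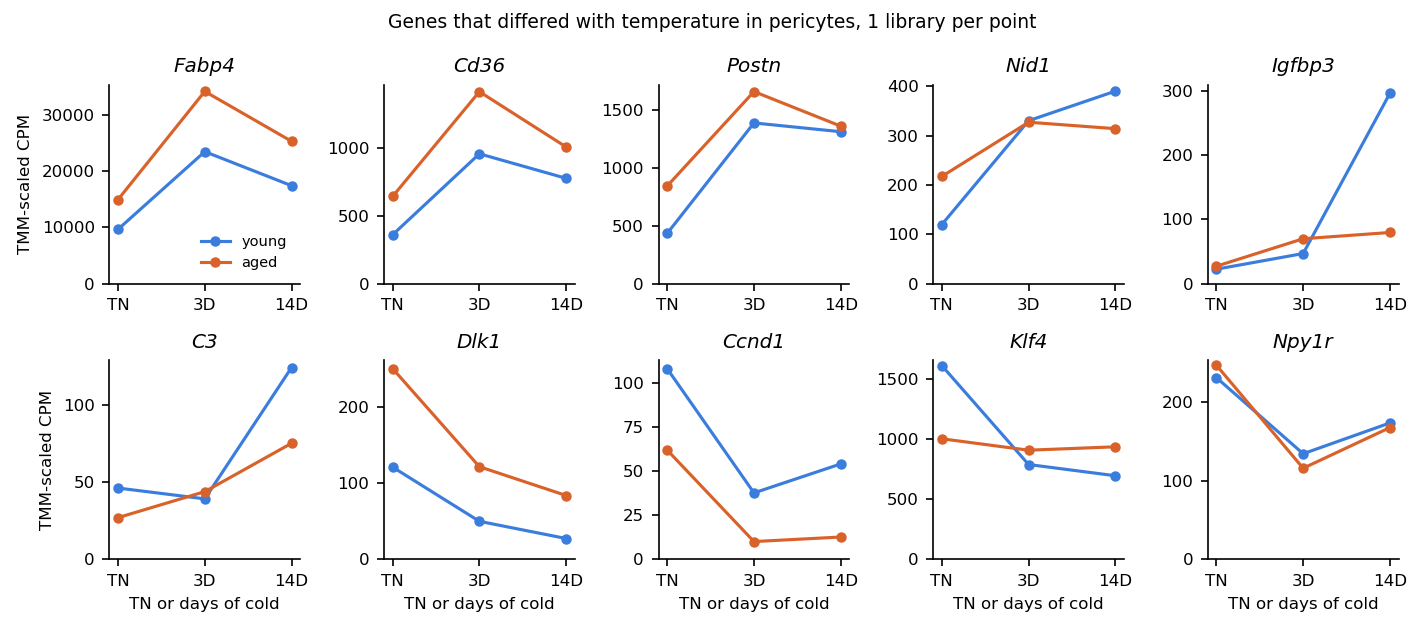
Levels in pericytes (TMM-scaled CPM, linear axes from 0) of 10 genes that passed for temperature, at TN, 3D and 14D, 1 library per point, with the young and the aged libraries each joined by a line. Fabp4, Cd36 and Postn were lowest at TN in both ages, Dlk1 was highest at TN, and Igfbp3 reached 297 CPM in the young 14D library.

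The other lists followed in part. Of the 18 contractile genes 6 passed for temperature, all lower at both cold times, with Acta2 at -0.79 at 3D and -0.51 at 14D (edgeR adjusted p = 0.000522), Pln at -2.38 and -1.38 (adjusted p = 8.95e-05), and Myh11, Mylk, Mustn1 and Tpm1 between adjusted p 0.00564 and 0.0321. Each of the 6 was lost without the young 3D cold library, and Pln, Myh11, Mylk, Mustn1 and Tpm1 also without young TN and, but for Pln, without aged 3D (highest adjusted p of the 6 fits 0.180 to 0.700). Of 16 tested without the pericytes meeting the smooth muscle limits 3 passed, namely Acta2 (adjusted p = 1.23e-07), Sncg and Tagln, and of the 6 calls this kept Acta2 alone. Plin2 (0.74 and 0.69, adjusted p = 0.0218) and Plin1, which coats the lipid droplet of fat cells (0.87 and 1.89, adjusted p = 0.00861), rose among the adipogenic genes. The carbonic anhydrase Car3 (1.80 and 0.21, adjusted p = 0.000214) and the protease adipsin (Cfd, 0.86 and -1.26, adjusted p = 0.00879) changed with Plin1 among 5 tested adipocyte markers of 10, and the sum of those markers was highest at 3D in both ages. The part of adipocyte RNA in these changes was not tested. Plin1, Plin2, Cfd and Car3 lost the call without young 3D, with adjusted p up to 0.188, 0.467, 0.849 and 0.620, and Cfd and Plin1 also without young 14D and Plin2 without young TN or aged 3D.

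Among pericyte genes Abcc9 (0.84 and 0.28, edgeR adjusted p = 0.0236), Art3 (0.78 and 0.48, adjusted p = 0.0300) and Steap4 (0.80 and 0.55, adjusted p = 0.0408) rose in the cold, and the neuropeptide Y receptor Npy1r fell (-0.93 and -0.49, adjusted p = 0.0136). Without the pericytes meeting the smooth muscle limits Abcc9, Art3, Steap4 and Npy1r did not pass (adjusted p = 0.387, 0.712, 0.729 and 0.648). Npy1r was 231, 134 and 173 CPM in young and 247, 116 and 167 in aged pericytes, nearly the same at each temperature in both ages. The basement membrane linker Nid1 rose (0.97 and 1.11, adjusted p = 0.00474), and fibronectin (Fn1, -0.33 and 0.96, adjusted p = 0.00811) changed in opposite directions at the cold times. Nrip2 (-0.93 and -0.71, adjusted p = 0.00808), Ccnd1 (-1.84 and -1.27, adjusted p = 0.00101), Cd9 (-0.84 and -1.02, adjusted p = 0.00474) and the stress gene Gadd45b (-0.50 and -0.72, adjusted p = 0.0448) fell, as did the transcription factor Klf4 (-0.62 and -0.70, adjusted p = 0.0429). All of these calls were lost without the young and without the aged 3D cold library, with highest adjusted p of 0.180 to 0.935 over the 6 fits.

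Several inflammatory genes passed for temperature, and 3D was not tested against 14D. Ccl2 (-0.18 at 3D and 1.24 at 14D, edgeR adjusted p = 0.00104) and complement C3 (0.17 and 1.50, adjusted p = 0.00232) were highest at 14D in both ages. Without the richest pericyte of each library Ccl2 was no longer highest at 14D in the aged, and 1 young 14D pericyte held 48 of the 207 C3 UMIs. Cxcl10 passed too (1.24 and -1.35, adjusted p = 0.000457), with the 3D value above TN in aged pericytes and below it in young ones. Cxcl1 (0.22 and -0.43, adjusted p = 0.0468) and the immediate early gene Ier2 (0.37 and -0.33, adjusted p = 0.0287) had fitted values above TN at 3D and below it at 14D. The glucocorticoid-induced Tsc22d3 was higher at both (0.84 and 0.36, adjusted p = 0.0244), and the endothelial Cd300lg likewise (1.14 and 0.27, adjusted p = 0.00787). The fibroblast gene Clec3b passed at 0.48 and 1.67 (adjusted p = 0.0168), with 55 of its 154 UMIs in 1 young 14D pericyte, and did not pass with fewer than 10 Dcn UMIs per 10000 and no UMI of Cdh5, Pecam1 or Ptprc (adjusted p = 0.803). Cxcl10 lost the call without the aged 3D library (adjusted p 0.264), and the other 7 without the young 3D library, with highest adjusted p of 0.230 to 0.899 over the 6 fits. Ccl2, C3, Clec3b, Cxcl1 and Ier2 also lost it without young 14D, the library of the pericytes rich in Ccl2, C3 and Clec3b.

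Whether age acted differently in pericytes than in neighbouring cells was tested as the interaction of age with class, with the library as a block. Against smooth muscle-type barcodes 25 of 7820 genes passed (0.32%), 14 of them more positive in pericytes (0.179%) and 11 more negative (0.141%). Against endothelial-type barcodes 52 of 9728 passed (0.535%), 48 more positive (0.493%) and 4 more negative (0.0411%). Against fibroblast-type barcodes 109 of 13551 passed (0.804%), 59 more positive (0.435%) and 50 more negative (0.369%). At an unadjusted p under 0.05 the shares were 8.7%, 8.35% and 8.24%. Within each class alone, in that order, age passed for 155 of 6817 genes (2.27%), 137 of 10164 (1.35%) and 1568 of 14373 (10.9%). Without single libraries the counts ran from 3 (without young 14D) to 22, from 29 (without aged 3D) to 59 and from 84 to 151.

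Meg3, a maternally expressed long non-coding RNA, did not pass for age in pericytes and fell in both smooth muscle-type and fibroblast-type barcodes. In plain CPM it was 1175, 1507 and 1395 in young and 1716, 1424 and 1468 in aged pericytes (0.21 ± 0.12, edgeR adjusted p = 0.439). In fibroblast-type barcodes it was 1512, 1487 and 1539 in young and 365, 329 and 376 in aged. Pericytes of both ages and young fibroblast-type barcodes thus lay near each other, and aged fibroblast-type barcodes lay apart. The difference of the age effects was 2.26 ± 0.18 against fibroblast-type (adjusted p = 4.15e-13) and 1.44 ± 0.16 against smooth muscle-type barcodes (adjusted p = 2.11e-05), where Meg3 was 186, 250 and 234 in young and 110, 74.3 and 89.1 in aged. The imprinted transcription factor Peg3 rose in pericytes and fell in fibroblast-type barcodes (difference 2.75 ± 0.24, adjusted p = 5.53e-12). Postn was 576, 237 and 455 CPM in young and 46.8, 48.6 and 79.8 in aged fibroblast-type barcodes, while it did not pass for age in pericytes (0.41 ± 0.13, adjusted p = 0.0896), a difference of 3.15 ± 0.32 (adjusted p = 6.35e-10).

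Rgs16 rose in pericytes and did not pass in fibroblast-type or endothelial-type barcodes, with differences of 2.39 ± 0.23 (edgeR adjusted p = 1.21e-10) and 2.18 ± 0.22 (adjusted p = 4.51e-05). Cxcl10 differed from its age effect in smooth muscle-type barcodes by 2.99 ± 0.33 (adjusted p = 2.11e-05), where it was 40.8, 24.6 and 13.1 plain CPM in young and 24.3, 51.0 and 4.35 in aged. Hspa1a (1.39 ± 0.21, adjusted p = 0.00217) and Cog7 (1.20 ± 0.20, adjusted p = 0.00927) were also more positive in pericytes than in smooth muscle-type barcodes. Gm14964, a gene of antisense type, rose more in fibroblast-type barcodes than in pericytes (-2.31 ± 0.24, adjusted p = 5.90e-10). Whether its counting used strand is not given in the sources used here, so its reads and those of an overlapping gene may not be told apart.

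Against endothelial-type barcodes the leading genes were ones that pericytes carried at the higher level. The activin inhibitor follistatin (Fst) was 181, 219 and 187 plain CPM in young and 511, 332 and 279 in aged pericytes. In endothelial-type barcodes it was 69.7, 85.8 and 72.1 in young and 10.4, 17.1 and 6.03 in aged, a difference of the age effects of 3.69 ± 0.27 (edgeR adjusted p = 5.37e-07). The interferon-induced Ifitm1 (2.65 ± 0.30, adjusted p = 0.000142), Agtr1a (2.23 ± 0.31, adjusted p = 0.00162) and Steap4 (1.97 ± 0.23, adjusted p = 0.000235) differed too, with falls in endothelial-type barcodes from levels of at most 72.7 CPM in any young library. The part of pericyte RNA in endothelial-type barcodes was not tested.

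**Figure D5:**
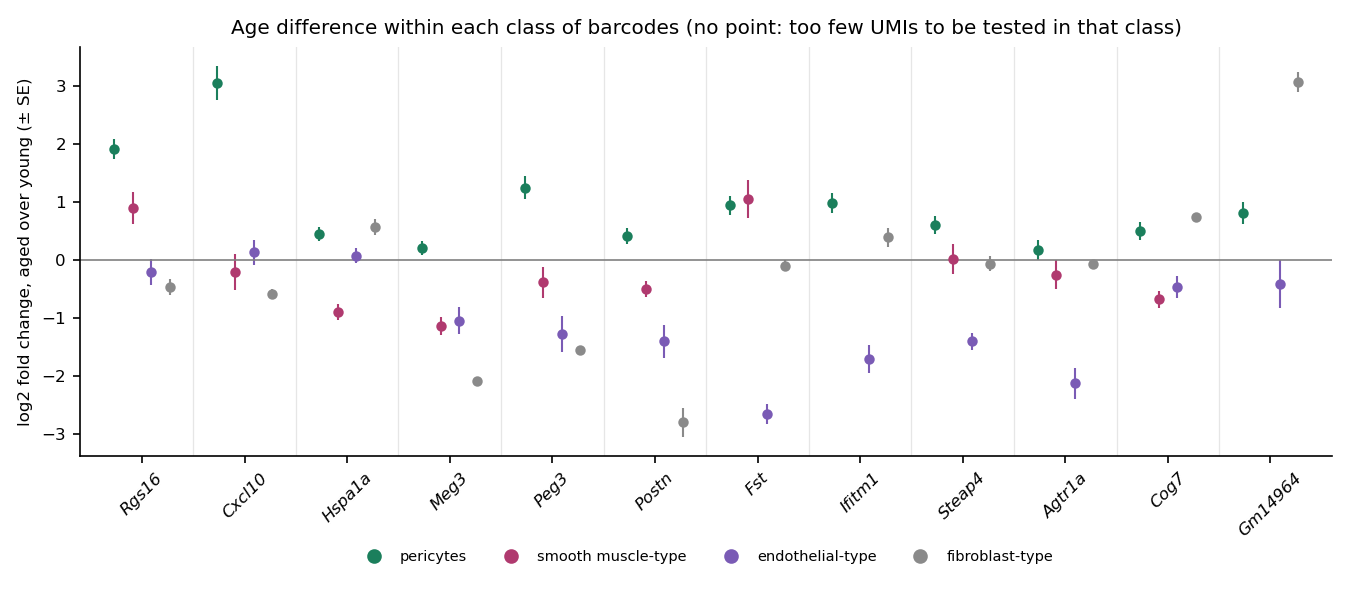
Log2(aged over young) with its standard error in pericytes and in smooth muscle-type, endothelial-type and fibroblast-type barcodes, for genes whose age effect differed between pericytes and at least 1 of those classes. Meg3 lay at 0.21 in pericytes and at -2.09 in fibroblast-type barcodes, and Fst at 0.95 in pericytes and -2.66 in endothelial-type barcodes.

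Markers of the remaining cell types differed in level. The 12 macrophage markers summed to 36, 31 and 15 CPM in young and 47, 48 and 45 in aged pericytes, Cd68 being the most abundant, and 5 of them had no UMI in any library. Red blood cell markers summed to 3, 19 and 3 CPM in young and 5, 14950 and 8 in aged pericytes, 99.9% of the aged 3D value coming from the 1 barcode described above. Without that barcode 255 genes passed for age and 103 for temperature. The 10 Schwann cell markers summed to 228, 305 and 318 CPM in young and 292, 292 and 299 in aged pericytes, 98.3% of it Pmp22, which fibroblast-type barcodes also carried (282 CPM against 284 in pericytes), and 4 of the 10 had no UMI in any library. Pmp22 was the 1 Schwann marker that passed the filter on low counts, and of 6 skeletal muscle markers 0 did.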

How the data were processed

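The values are UMIs per gene and barcode from single-cell 3' libraries of CD45-depleted iWAT stromal vascular cells, 1 library per age and temperature, with library totals from 52068837 to 88508349 UMIs. The deposited UMI counts came from Cell Ranger (3.1.0 per the file headers), which the authors ran against mm10, keeping barcodes called as cells, and the labels name R 4.1.1 and Seurat for later steps that are not in these counts. The deposited counts are whole numbers and not normalized. 3' counting takes 1 tag per transcript, so levels do not scale with gene length.

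The members and the gene lists were chosen with earlier results of these data known. Genes were named by rule. These were the 10 largest rises and falls with age that passed, kept 1 direction at all 3 temperatures and reached 30 CPM, list members that passed, the 5 genes with the smallest temperature p, the 15 with the highest ratio over other classes, the 5 smallest p per interaction at 30 CPM, and the genes of the rule. Cxcl9 and the other large rises come from the first of these.

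Pericyte UMIs were summed per library with Python 3.11.15 (numpy 2.4.6, scipy 1.17.1, pandas 2.3.3) and tested in R 4.3.3 with edgeR 4.0.16 (TMM factors, filterByExpr by age, quasi-likelihood F test of age with temperature in the model and of temperature with age in it). The fit left 2 residual degrees of freedom, with a prior of 28.2 and a common biological coefficient of variation of 0.108, so each gene's error leans on the other genes. Interactions used 12 sums with the library as a block. DESeq2 1.42.0 was an alternative. On simulated counts with 200 genes changed by 1 on the log2 scale, the age test recovered 61% with 4 false calls, the temperature test 49.5% with 0, and the interaction with smooth muscle-type barcodes 33% with 3. The simulation gave every gene the common coefficient of variation and held no library or pericyte that stood apart. Its false calls therefore do not measure those among the real counts. Gene positions were matched by identifier to GENCODE vM21 for 31011 of 31053 genes. Alternatives were other tests, factors and filters, stricter or looser barcodes, thinning to 1000 UMIs and each library left out. No column of the authors' own comparisons was used. Results of some genes that the rules chose are not reported here.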

Additional observations from a re-analysis of the deposited data

Results flagged for a closer look

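For the genes below, in 3 comparisons, the change with age differed between pericytes and a neighbouring class by edgeR's test of the interaction. Against smooth muscle-type barcodes, the log2 difference of the age effects was 1.44 for Meg3, 2.99 for Cxcl10, 1.39 for Hspa1a and 1.20 for Cog7. Of Cxcl10, 93 of 283 UMIs lay in 1 aged 3D pericyte. Against endothelial-type barcodes it was 3.69 for Fst, 2.18 for Rgs16, 2.65 for Ifitm1, 1.97 for Steap4 and 2.23 for Agtr1a. Against fibroblast-type barcodes it was 2.26 for Meg3, 2.75 for Peg3, 2.39 for Rgs16, 3.15 for Postn and -2.31 for Gm14964.

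Barcodes outside the pericyte limits carried the pericyte signal as well. At the full Rgs5, Kcnj8, Higd1b and Cox4i2 limits, 236 barcodes were left out for UMIs of Cdh5, Pecam1 or Ptprc, 155 for Dcn and 105 for their mitochondrial share.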

How the results depend on the processing

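Over 85 named genes and the alternatives that tested them, the age call kept its direction and its side of the threshold in 784 of 1350 fits, lost significance in 557 and turned in 9, and for 36 genes and temperature the numbers were 311, 245 and 5 of 561. The age count of 261 became 41 with DESeq2, 21 with the stricter marker limits, 2 without the temperature term, 2 after thinning to 1000 UMIs with equal pericytes per library, and 113 without the pericytes meeting the smooth muscle limits. Leaving out a library gave 21 to 305. The temperature count of 106 became 10, 0, 0 (no age term), 1 and 47 in the same order, 67 with the Dcn limit at 10 and no endothelial or immune UMI, 215 with no filter on low counts, and 5 to 379 without a library. At an unadjusted p under 0.05, the counts of 0 stood beside 368 genes (stricter limits) and 328 (no age term) in edgeR. The interaction counts of 25 (smooth muscle-type), 52 (endothelial-type) and 109 (fibroblast-type) became 10, 23 and 34 with DESeq2, 3, 8 and 31 after thinning, 90 and 167 (the first 2) with no filter, and 3 to 22, 29 to 59 and 84 to 151 without a library. In the 2 alternatives chosen after seeing the data, pericytes meeting the smooth muscle limits alone gave 23 genes for age and 2 for temperature, and removing the haemoglobin-rich pericyte gave 255 and 103. Fewer UMIs enter the thinned and stricter fits, and for the other settings the cause was not tested.

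The aged minus young share of pericytes, 0.0365 percentage points, turned to -0.0192 without young TN, -0.325 without aged TN and -0.181 with the stricter limits. It was -0.00937 with the Dcn limit at 10 and no UMI of Cdh5, Pecam1 or Ptprc, both limits being changed together. It spanned -0.325 to 0.406 without a library. Pericytes per 100 endothelial-type barcodes differed by -6.14 in the main setting and by -7.94 to -4.16 without a library. With the rule applied after thinning to 1000 UMIs the difference was -2.75. Log2 differences with age turned without the pericytes meeting the smooth muscle limits for Acta2 (0.36), Lamb2 (0.0913), Lmod1 (0.12), Myh11 (0.50), Sncg (0.58) and Tpm1 (0.031). They turned for Abcc9 (-0.0309) after thinning to 1000 UMIs with equal pericytes per library, and for Cxcl1 (-0.10) with the stricter limits. In the pericytes meeting the limits alone they turned for Hspa1a (-0.0728). For temperature they turned in those pericytes for Abcc9 (-0.63), Art3 (-0.024), Ier2 (-0.23) and Plin2 (-0.75), and without young 14D for Cfd (0.0808, against -2.16 without aged 14D). No paired analysis was possible because every group has the 1 replicate number, so numbers pair nothing beyond it, while the temperature term already compares the ages within each temperature.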
